A study of Mus musculus with 12 samples.

Results

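The genes examined were 10 genes of oxylipin and eicosanoid metabolism, of which 9 encode enzymes and 1, Alox5ap, encodes a helper protein. They were taken by name (Alox5, Alox5ap, Ltc4s, Ptgs1, Ptgs2, Ptges, Cyp2j5, Cyp2j6, Ephx1 and Ephx2) from the 54532 genes of a liver RNA-seq table. The table covers 12 male C57BL/6J mice, 3 in each of 4 diet groups, which were 5 weeks old when the diets began and were kept on them for 26 weeks. ND-fed mice received a normal diet, control mice received a high-fat diet, and HYA-treated and LA-treated mice received that high-fat diet supplemented with 1% HYA or 1% LA. HYA (10-hydroxy-cis-12-octadecenoic acid) is formed from linoleic acid (LA) by lactic acid bacteria of the gut, which add water to 1 of its double bonds, so that the LA group received the parent fatty acid at the same dose. The high-fat diet was common to control, HYA-treated and LA-treated mice, and no group received HYA or LA on a normal diet. Levels are given in FPKM, that is, sequenced fragments divided by gene length in kilobases and by a factor for library size, for single mice in the order of their replicate numbers.

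Oxylipins are oxygenated products of polyunsaturated fatty acids such as LA and arachidonic acid, and those made from arachidonic acid are called eicosanoids. Lipoxygenases start the route to leukotrienes, cyclooxygenases start the route to prostaglandins and thromboxanes, and cytochrome P450 epoxygenases form epoxy fatty acids, which epoxide hydrolases convert to diols. Leukotrienes and prostaglandins are made largely by leukocytes, platelets and other nonparenchymal cells, whereas hepatocytes are rich in P450 enzymes and epoxide hydrolases.

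The tissue label fitted the marker genes, given that the hepatocyte gene Alb had a mean of 23930 FPKM. The fragments assigned to genes numbered 17169064 to 25220880 per mouse, replicate mice correlated at 0.9826 to 0.9904 across the 11083 tested genes, and no columns were identical.

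On the mouse build GRCm38, the leukotriene genes are Alox5 (chr6:116410077-116461178), Alox5ap (chr5:149264767-149288153) and Ltc4s (chr11:50236461-50238616), and the prostaglandin genes are Ptgs1 (chr2:36230426-36252272), Ptgs2 (chr1:150100031-150108227) and Ptges (chr2:30889471-30929863). The epoxide hydrolase genes are Ephx1 (chr1:180976210-181020904) and Ephx2 (chr14:66084374-66124500). The epoxygenase genes Cyp2j5 (chr4:96628773-96664154) and Cyp2j6 (chr4:96516138-96553661) lie close together on the minus strand of chromosome 4. Their coding sequences are of the same length, 1503 bases, and 79% of the aligned positions were identical, yet neither shared any 150-base window of its exons with another gene. The sequences upstream of the start sites of these 2 genes are shown because they belong to close paralogs of very different level, the lowest value of Cyp2j5 in any mouse (207.4 FPKM) being far above the highest of Cyp2j6 (26.1 FPKM). They are the RefSeq entries for GRCm38.p6, 5' to 3' along the coding strand, without the bases that GENCODE M21 counts as exonic, and the capitals mark matches to a short list of promoter motifs.
Cyp2j5 (chr4:96664155-96664369, 215 bases): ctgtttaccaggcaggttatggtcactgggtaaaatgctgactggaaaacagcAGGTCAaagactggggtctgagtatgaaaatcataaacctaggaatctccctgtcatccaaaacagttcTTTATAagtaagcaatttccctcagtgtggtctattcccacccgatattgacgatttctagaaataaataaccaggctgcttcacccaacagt
Cyp2j6 (chr4:96553662-96553901, 240 bases): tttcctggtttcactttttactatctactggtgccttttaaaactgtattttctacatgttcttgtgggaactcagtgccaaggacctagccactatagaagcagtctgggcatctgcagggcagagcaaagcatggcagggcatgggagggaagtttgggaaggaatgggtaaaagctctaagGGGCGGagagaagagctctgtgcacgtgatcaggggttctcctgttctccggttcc
Both strands were searched for the TATA box spelled TATAAA, for the GC box spelled GGGCGG, for the element CCAAT, for the half-site of nuclear receptors spelled AGGTCA and for the antioxidant response core spelled TGACNNNGC. Counted from the RefSeq start site, the Cyp2j5 stretch held the half-site AGGTCA at position -197 and the TATA box on the opposite strand at position -128, whereas the Cyp2j6 stretch held the GC box at position -66. Of 32851 mouse promoter windows of 250 bases, 14% held the half-site, 12.4% the TATA box and 32.7% the GC box, and the matches are a description only.

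The 10 genes spanned 4 orders of magnitude in level. Ephx2, which encodes soluble epoxide hydrolase, had a mean of 323.91 FPKM over the 12 mice and ranked 134 among all genes. Cyp2j5, a hepatic epoxygenase, followed with 262.67 FPKM (rank 168), and Ephx1, which encodes microsomal epoxide hydrolase, with 246.21 FPKM (rank 184). Cyp2j6 had 22.6 FPKM, Ptgs1 (cyclooxygenase-1) 5.04 FPKM and Alox5ap, which encodes the protein that presents arachidonic acid to 5-lipoxygenase, 1.66 FPKM. These 6 genes passed the filter of a mean of at least 1 FPKM and were tested. The other 4 did not, namely Ltc4s (leukotriene C4 synthase) with 0.487 FPKM, Ptges (the inducible prostaglandin E synthase) with 0.303 FPKM, Ptgs2 (cyclooxygenase-2) with 0.0366 FPKM and Alox5 (5-lipoxygenase) with 0.0322 FPKM.

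**Figure D1:**
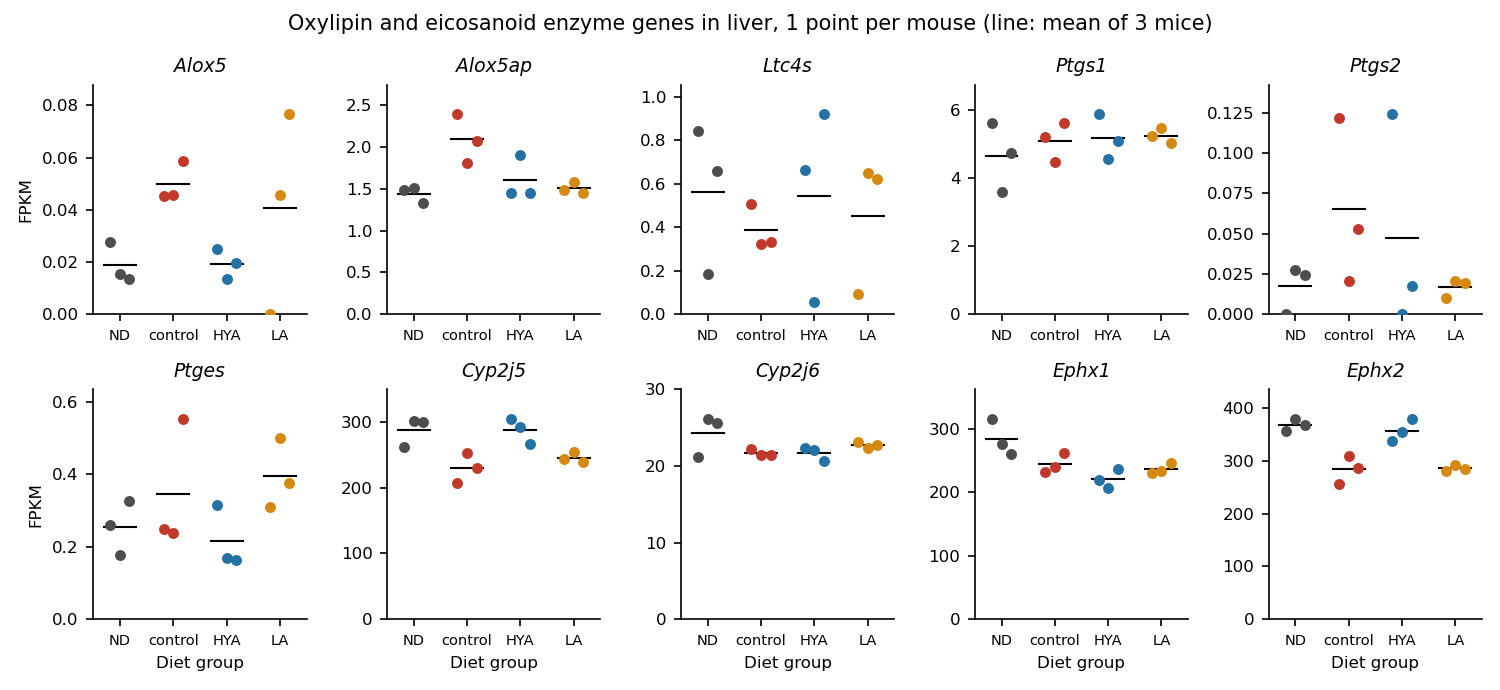
Level of each of the 10 genes in FPKM (y axis, starting at 0 and scaled separately for each gene) in the 4 diet groups (x axis), with 1 point per mouse and a line at the mean of 3 mice. For Ephx2 the 3 HYA-treated mice sit at 337.8 to 379.0 FPKM, above the 3 control mice at 256.7 to 310.0 FPKM, and for Alox5ap the 3 control mice sit above all ND-fed and LA-treated mice.

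The first comparison asked what the high-fat diet alone changed. Among the 6 tested genes, Alox5ap rose and Cyp2j5 and Ephx2 fell in control mice compared with ND-fed mice, and Ptgs1, Cyp2j6 and Ephx1 did not pass the test (limma on log2(FPKM + 1), Benjamini-Hochberg adjusted p under 0.05). Over all 11083 genes, 16.2% rose and 19.1% fell in this comparison, so that 1 higher and 2 lower calls among 6 genes are of the order found across the transcriptome. The median log2 fold change was -0.18 for the 6 genes and -0.04 for all tested genes.

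Ephx2 was 357.1, 378.7 and 368.4 FPKM in ND-fed mice and 256.7, 310.0 and 286.6 FPKM in control mice. Every control mouse was below every ND-fed mouse. The group means were 368 ± 10.8 and 284 ± 26.7 FPKM (SD, n = 3 mice each), a difference of -22.7%, and the log2 fold change was -0.37 (SE 0.0711, 95% confidence interval -0.532 to -0.218, adjusted p = 0.00227).

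Cyp2j5 was 261.0, 301.8 and 300.4 FPKM in ND-fed mice and 207.4, 252.9 and 230.3 FPKM in control mice. The ranges did not overlap, although the highest control mouse and the lowest ND-fed mouse were close. The means were 288 ± 23.2 and 230 ± 22.7 FPKM (SD, n = 3), and the log2 fold change was -0.32 (SE 0.0853, 95% confidence interval -0.511 to -0.134, adjusted p = 0.0138). This call was lost without ND-fed mouse 2 (adjusted p = 0.0516), without control mouse 1 (0.0548) and when only the 2 groups were fitted (0.0544).

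Alox5ap moved in the other direction, from 1.48, 1.51 and 1.33 FPKM in ND-fed mice to 2.39, 1.81 and 2.07 FPKM in control mice. All control mice were above all ND-fed mice. The means were 1.44 ± 0.0949 and 2.09 ± 0.289 FPKM (SD, n = 3), a difference of 45.2%, and the log2 fold change on the log2(FPKM + 1) scale, which understates changes of low genes, was 0.34 (SE 0.0886, 95% confidence interval 0.142 to 0.533, adjusted p = 0.0132). These levels rest on 34 to 37 fragments per ND-fed mouse and 55 to 73 per control mouse. On recovered fragments (voom) the log2 fold change was 0.53 with adjusted p = 0.0547, and without control mouse 1 it was 0.27 with adjusted p = 0.0574.

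Ephx1 was 314.7, 276.0 and 259.5 FPKM in ND-fed mice and 231.5, 239.5 and 261.2 FPKM in control mice. The highest control mouse lay above the lowest ND-fed mouse, and the log2 fold change of -0.21 missed the threshold (95% confidence interval -0.389 to -0.0346, adjusted p = 0.0621). It passed without ND-fed mouse 3 (-0.27, adjusted p = 0.0341) and without control mouse 3 (-0.26, adjusted p = 0.044), which were the pair that overlapped, but with TPM it was 0.02 (adjusted p = 0.85). Cyp2j6 was 21.2, 26.1 and 25.6 FPKM in ND-fed mice and 22.2, 21.4 and 21.4 FPKM in control mice. ND-fed mouse 1 was as low as the control mice. The log2 fold change of Cyp2j6 was -0.15 (95% confidence interval -0.312 to 0.00666, adjusted p = 0.125), and without ND-fed mouse 1 it was -0.24 with adjusted p = 0.00725, whereas with TPM it was 0.08 with adjusted p = 0.436. Ptgs1 was 5.63, 3.58 and 4.74 FPKM in ND-fed mice and 5.21, 4.46 and 5.63 FPKM in control mice, with a log2 fold change of 0.12 (95% confidence interval -0.16 to 0.403, adjusted p = 0.491). Its spread among ND-fed mice exceeded the difference of the means.

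The authors' scaling keeps the median gene near 0, and converting the columns to TPM moved the median of the log2 fold changes over all genes tested in control against ND-fed mice from -0.04 to 0.17 and the calls from 1795 higher and 2115 lower to 3792 higher and 732 lower. On that scale Alox5ap rose (0.63, adjusted p = 0.0023), whereas Ephx2 (-0.14, adjusted p = 0.0624) and Cyp2j5 (-0.09, adjusted p = 0.357) were no longer called. Relative to the median of all genes, their differences under TPM were -0.31 and -0.26. The log2 fold changes of Ephx1 and Cyp2j6, negative on the authors' scale, turned positive under TPM, and relative to the median of all genes they were -0.14 and -0.09.

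**Figure D2:**
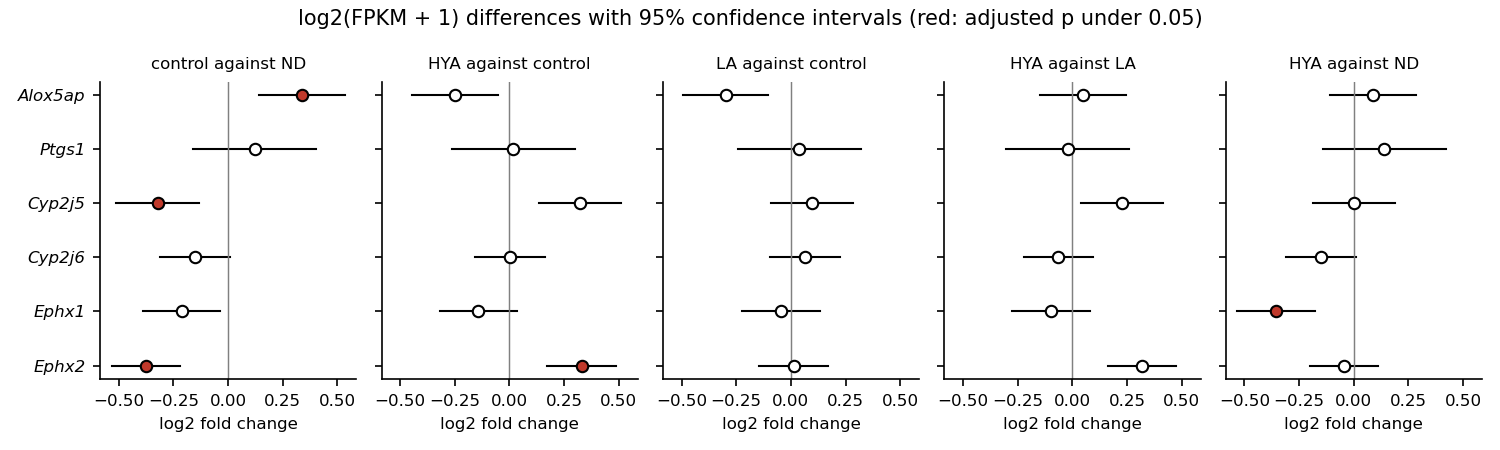
Log2 fold change on the log2(FPKM + 1) scale (x axis) with its 95% confidence interval for the 6 tested genes (y axis) in 5 comparisons (panels), with red points where the adjusted p was under 0.05. Ephx2 was -0.37 in control against ND-fed mice and 0.33 in HYA-treated against control mice, and none of the 6 genes is red in LA-treated against control mice.

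The second comparison asked what 1% HYA changed on the high-fat diet. Ephx2 was the 1 gene of the 6 that passed the test, and it was higher in HYA-treated mice. Over all 11083 genes, 1.57% rose and 1.23% fell. The median log2 fold change was 0.01 for the 6 genes and 0.02 for all tested genes.

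Ephx2 was 337.8, 354.4 and 379.0 FPKM in HYA-treated mice, against 256.7, 310.0 and 286.6 FPKM in control mice. All HYA-treated mice were above all control mice and overlapped the range of ND-fed mice. The mean of 357 ± 20.8 FPKM (SD, n = 3) was 25.5% above that of control mice, and the log2 fold change was 0.33 (SE 0.0711, 95% confidence interval 0.173 to 0.487, adjusted p = 0.0412). The call was a narrow one and was lost when any 1 mouse other than control mouse 2 was left out (adjusted p = 0.0537 to 0.156), with no filter on low values (0.0824), with TPM (0.057, log2 fold change 0.20) and when only the 2 groups were fitted (0.178). The log2 fold change itself stayed between 0.20 and 0.39 in the 20 alternatives.

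Cyp2j5 was 303.9, 292.4 and 266.2 FPKM in HYA-treated mice, and all 3 were above the control mice at 207.4, 252.9 and 230.3 FPKM. The log2 fold change was 0.32 (SE 0.0853, 95% confidence interval 0.134 to 0.51), nearly that of Ephx2, but the adjusted p was 0.0712. Without control mouse 2, the highest of the control mice, it was 0.39 with adjusted p = 0.0296, the 1 alternative of 20 in which it passed. Without control mouse 1 it was 0.25 with adjusted p = 0.252, and with TPM it was 0.20 with adjusted p = 0.125.

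Alox5ap was 1.45, 1.90 and 1.45 FPKM in HYA-treated mice and 2.39, 1.81 and 2.07 FPKM in control mice. HYA-treated mouse 2 lay within the range of control mice, and the log2 fold change of -0.25 did not pass (95% confidence interval -0.444 to -0.0535, adjusted p = 0.161), nor did that of -0.43 with TPM (adjusted p = 0.0767). Ephx1 was 219.8, 206.8 and 236.3 FPKM in HYA-treated mice, and its log2 fold change was -0.14 (95% confidence interval -0.32 to 0.0341, adjusted p = 0.377). For Cyp2j6, with 22.4, 22.0 and 20.7 FPKM in HYA-treated mice, the log2 fold change was 0.00 with a 95% confidence interval of -0.158 to 0.161. Ptgs1, with 5.87, 4.57 and 5.08 FPKM, had a log2 fold change of 0.02 with an interval of -0.264 to 0.299.

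LA is the structural parent of HYA, from which HYA differs by the added hydroxyl group and the lost double bond, and both were given at 1% for 26 weeks. None of the 6 genes passed the test in LA-treated against control mice, and the share of all genes called was 0% in each direction, with 294 of 11083 genes (2.65%) and 1 of the 6 members at an unadjusted limma p under 0.05 and 0 members called by voom. Ephx2 was 281.3, 291.8 and 285.0 FPKM in LA-treated mice, within the range of control mice, and the log2 fold change of 0.01 had a 95% confidence interval of -0.145 to 0.169. Cyp2j5 was 243.2, 254.1 and 238.4 FPKM (log2 fold change 0.10, interval -0.0931 to 0.283), and Ephx1 was 230.1, 233.6 and 245.5 FPKM (log2 fold change -0.04, interval -0.222 to 0.133). Cyp2j6 was 23.2, 22.3 and 22.7 FPKM, all 3 above the control mice by a margin that the test did not resolve (log2 fold change 0.07, interval -0.0944 to 0.225). Ptgs1 was 5.23, 5.46 and 5.04 FPKM (log2 fold change 0.04, interval -0.244 to 0.319).

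Alox5ap was 1.49, 1.59 and 1.45 FPKM in LA-treated mice, all below the control mice at 2.39, 1.81 and 2.07 FPKM and within or just above the range of ND-fed mice. Its log2 fold change was -0.30 (95% confidence interval -0.494 to -0.103), the unadjusted limma p was 0.00648 and the adjusted p was 0.999, so that it is not a call.

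In the direct comparison of the 2 fatty acids, no member passed in HYA-treated against LA-treated mice, where 0.235% of all genes rose and 0.253% fell, and 1 was called by voom. At an unadjusted limma p under 0.05 were 2 of the 6 genes and 17.2% of all genes. Ephx2 was 24.8% higher in HYA-treated mice and the ranges did not overlap (log2 fold change 0.32, SE 0.0711, 95% confidence interval 0.161 to 0.475, adjusted p = 0.0681). It passed in 4 of the 20 alternatives, namely on recovered fragments (0.0464), without control mouse 1 (0.0279), without control mouse 2 (0.0341) and with the replicate number as a block (0.0361). Over the 20 alternatives the adjusted p ran up to 0.254 (without LA-treated mouse 1), and with TPM the log2 fold change was 0.20 (adjusted p = 0.0852). Cyp2j5 was 17.2% higher, also without overlap (log2 fold change 0.23, interval 0.0388 to 0.415, adjusted p = 0.202), and with TPM its log2 fold change was 0.11 (adjusted p = 0.377). For the other 4 genes the ranges overlapped, and the log2 fold changes were 0.05 for Alox5ap (interval -0.146 to 0.245), -0.02 for Ptgs1 (-0.302 to 0.261), -0.06 for Cyp2j6 (-0.223 to 0.0957) and -0.10 for Ephx1 (-0.276 to 0.0788).

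HYA-treated mice were also set against ND-fed mice, a comparison in which 8.72% of all genes rose and 7.85% fell. Ephx1 was the 1 member called, and it was lower. It was 219.8, 206.8 and 236.3 FPKM in HYA-treated mice and 314.7, 276.0 and 259.5 FPKM in ND-fed mice, with no overlap and means of 221 ± 14.8 and 283 ± 28.4 FPKM (SD, n = 3). The log2 fold change was -0.36 (SE 0.0803, 95% confidence interval -0.532 to -0.178, adjusted p = 0.0126), which was lost with TPM (-0.24, adjusted p = 0.0817) and without HYA-treated mouse 2 (-0.31, adjusted p = 0.054). By contrast, Ephx2 and Cyp2j5 overlapped between these groups, with log2 fold changes of -0.04 (interval -0.202 to 0.112) and 0.00 (interval -0.188 to 0.188). Cyp2j6 had -0.15 (adjusted p = 0.175), with -0.24 and adjusted p = 0.0167 without ND-fed mouse 1 but -0.05 and adjusted p = 0.715 with TPM. Alox5ap had 0.09 and Ptgs1 0.14, neither of which was called. These 5 comparisons share groups, so that they are not independent of one another.

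For each gene the order of the group means on the authors' scale can be read from these values. Ephx2 ran ND (368 FPKM), HYA (357), LA (286) and control (284), and Cyp2j5 had the same order with 288, 287.5, 245 and 230 FPKM. In both, ND and HYA overlapped and LA and control overlapped, whereas the HYA range lay above the LA range. Ephx1 ran ND (283 FPKM), control (244), LA (236) and HYA (221), in which each neighboring pair overlapped. Cyp2j6 ran from 24.3 ± 2.71 FPKM (SD, n = 3) in ND-fed mice to 21.7 ± 0.48 FPKM in control mice, and Ptgs1 from 5.24 ± 0.211 FPKM in LA-treated mice to 4.65 ± 1.03 FPKM in ND-fed mice. Some of these orders changed with TPM. HYA was then above ND for Ephx2 (log2 fold change 0.07) and Cyp2j5 (0.11). Control was above ND for Ephx1 (0.02) and Cyp2j6 (0.08), and HYA was below control for Cyp2j6 (-0.12). None of these differences was called.

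The 4 genes under the filter were resolved only as small numbers of fragments. Alox5, the enzyme that starts leukotriene synthesis, had 33 fragments in all 12 mice, namely 2, 1 and 1 in ND-fed, 4, 4 and 5 in control, 2, 1 and 2 in HYA-treated, and 0, 4 and 7 in LA-treated mice. All control mice were above all ND-fed and all HYA-treated mice, by 2 to 4 fragments, and overlapped the LA-treated mice. The 0 in LA-treated mouse 1 allows a level of up to 0.0343 FPKM (3 fragments, counting error only). With no filter on low values, which kept 26045 genes, the adjusted p of Alox5 was 0.277 in control against ND-fed mice and 0.516 in HYA-treated against control mice. Ptgs2, the inducible cyclooxygenase, had 41 fragments, of which 12 were in control mouse 1 and 11 in HYA-treated mouse 1, and every other mouse had between 0 and 5. Control mouse 1 was also the control mouse with the highest Alox5ap and the lowest Ephx2 and Cyp2j5.

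Ltc4s, which conjugates leukotriene A4 with glutathione, had 15, 3 and 12 fragments in ND-fed, 11, 7 and 7 in control, 13, 1 and 23 in HYA-treated, and 2, 14 and 14 in LA-treated mice. Within 3 of the 4 groups the levels differed more than 3-fold between mice, and the voom interval of the log2 fold change in control against ND-fed mice, -2.26 to 1.54, was correspondingly wide. In Ltc4s, 2.74% of the 150-base windows are shared with the overlapping antisense gene Gm26542. Ptges, which makes prostaglandin E2 from the cyclooxygenase product, had 18, 11 and 23 fragments in ND-fed, 21, 20 and 45 in control, 24, 12 and 16 in HYA-treated, and 26, 42 and 33 in LA-treated mice. Its largest voom difference was between HYA-treated and LA-treated mice (-0.91, 95% confidence interval -1.75 to -0.0659, adjusted p = 0.251). Neither gene was called in any of the 5 comparisons by voom.

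Around these genes, 102 other genes of the same pathways were listed, of which 100 were in the table and 41 were tested. In control against ND-fed mice 9 of the 41 rose and 19 fell, where 16.2% of all tested genes rose and 19.1% fell. In HYA-treated against control mice 8 rose and 2 fell (1.57% and 1.23% of all genes), and in LA-treated against control mice none was called (1 at an unadjusted limma p under 0.05, 0 called by voom). In HYA-treated against LA-treated mice 2 rose (0.235% of all genes) and none fell. There 19 were at an unadjusted limma p under 0.05 (17.2% of all genes). By voom 7 of the listed genes were called, where 112 of 14353 genes rose and 112 fell. In HYA-treated against ND-fed mice 7 rose and 14 fell (8.72% and 7.85%). The median log2 fold changes of the 41 genes were -0.18, 0.17, 0.02, 0.17 and -0.13 in that order, against -0.04, 0.02, 0.00, 0.01 and -0.02 for all tested genes. The counts were highest in the cytochrome P450 groups, and the choice of these lists was made with results of these data known. In HYA-treated against control mice, 0 of all tested genes were called when only the 2 groups were fitted or without HYA-treated mouse 2. In HYA-treated against LA-treated mice, 0 were called without HYA-treated mouse 2, LA-treated mouse 1 or LA-treated mouse 2. The calls in these 2 comparisons, also those of pathway and marker genes named below, were therefore all lost in those fits.

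Of 6 tested phospholipases, 2 rose in control mice, Pla2g6 (0.43, adjusted p = 0.0169) and Pla2g7 (0.57, adjusted p = 0.0112), which encodes the platelet-activating factor acetylhydrolase of plasma. Of all tested genes, 16.2% rose in this comparison, and nothing is read from 2 of 6. None of the 6 other lipoxygenases reached 1 FPKM, and Alox15, an enzyme that also oxygenates LA, had a mean of 0.0306 FPKM. Of the other leukotriene enzymes, Mgst3 rose from 14.9 to 28.0 FPKM (0.89, adjusted p = 0.000723) in control mice, whereas Mgst1, a glutathione transferase (-0.23, adjusted p = 0.0272), and Lta4h, the leukotriene A4 hydrolase (-0.19, adjusted p = 0.0432), fell, although these last 2 were at 0.00 and 0.02 with TPM. Pla2g6, Pla2g7, Mgst1 and Lta4h were named after their values had been seen.

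Of 4 other prostanoid synthases tested, 1 rose and 1 fell in control mice (16.2% and 19.1% of all tested genes). Cbr1, a carbonyl reductase that can convert prostaglandin E2, rose from 24.1 to 38.2 FPKM in control mice (0.64, adjusted p = 0.000689) and was lower in HYA-treated mice at 27.7 FPKM (-0.45, adjusted p = 0.0448). Fam213b, a prostamide and prostaglandin F synthase named after its value had been seen, fell (-0.39, adjusted p = 0.0464) and was at -0.19 with TPM (adjusted p = 0.298). Of 4 genes of prostanoid breakdown and transport, 1 fell (19.1% of all tested genes). Slco2a1, the prostaglandin transporter, had 9.51 FPKM in ND-fed mice and fell to 2.46 FPKM in control mice (-1.61, adjusted p = 1.95e-06) and was 3.21 FPKM in HYA-treated and 2.15 FPKM in LA-treated mice. Of 19 receptors for these lipids, only Cmklr1 was tested, with no call on the authors' scale, and the fatty acid receptor genes Ffar1 and Ffar4, whose products are GPR40 and GPR120, had means of 0.0297 and 0.167 FPKM. With TPM Cmklr1 rose in control against ND-fed mice (0.70, limma adjusted p = 0.0202), where 3792 of all 11083 genes rose. The other epoxide hydrolases Ephx3 and Ephx4 had means of 0.0536 and 0.027 FPKM.

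The Cyp2c genes, a family that includes the other main epoxygenases of liver but was counted here as a whole, held the largest difference among the 41 genes. Of 11 tested, 9 fell and 2 rose in control mice, and 5 rose in HYA-treated against control mice, with the same counts on the TPM scale. Of all 11083 genes, 19.1% fell and 16.2% rose in control mice, and 1.57% rose in HYA-treated mice. With TPM these were 732, 3792 and 97 genes. Cyp2c54 was 187.5 FPKM in ND-fed, 9.32 FPKM in control, 51.1 FPKM in HYA-treated and 11.2 FPKM in LA-treated mice (means of 3 mice), and its log2 fold changes were -4.27 in control against ND-fed mice (adjusted p = 1.33e-06), 2.40 in HYA-treated against control mice (0.0129) and 2.09 in HYA-treated against LA-treated mice (0.0183). Cyp2c50, Cyp2c37, Cyp2c29 and Cyp2c23 rose by 1.38, 1.42, 0.93 and 0.85 in HYA-treated against control mice (adjusted p = 0.0168, 0.0492, 0.0187 and 0.0467). By contrast Cyp2c38 rose from 15.2 to 35.4 FPKM in control mice (1.16, adjusted p = 1.95e-06) and was 34.6 FPKM in HYA-treated mice. Cyp2j9, the remaining tested Cyp2j gene, fell from 3.61 to 2.02 FPKM in control mice (-0.62, adjusted p = 0.00534) and did not pass in HYA-treated mice (0.45, adjusted p = 0.106).

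Of 11 tested omega-hydroxylases, which oxidize the tail end of fatty acids, 3 rose and 5 fell in control against ND-fed mice (5 and 5 with TPM). In HYA-treated against control mice 3 rose and 1 fell (3 and 2 with TPM). Of all 11083 genes, 16.2% rose and 19.1% fell in the first of these comparisons (3792 and 732 genes with TPM). In the second, 1.57% rose and 1.23% fell (97 and 400 genes with TPM). Cyp4f14, which inactivates leukotriene B4, was 131.6 FPKM in ND-fed, 45.1 FPKM in control, 75.4 FPKM in HYA-treated and 48.4 FPKM in LA-treated mice, and it was called in HYA-treated against control (0.74, adjusted p = 0.0166) and against LA-treated mice (0.63, adjusted p = 0.038). Cyp4a12a (1.35, adjusted p = 0.0168) and Cyp4f13 (0.40, adjusted p = 0.0168) also rose in HYA-treated mice, and Cyp4a31 fell (-0.35, adjusted p = 0.0487). Cyp4a14, a target gene of PPARα, was 92.8 FPKM in ND-fed and 240.4 FPKM in control mice (1.44, adjusted p = 0.00233). Genes of the Cyp2c and Cyp4a families are close paralogs, and how the authors' counting divided fragments between them is not given in the sources used here, so that values of single genes are uncertain.

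**Figure D3:**
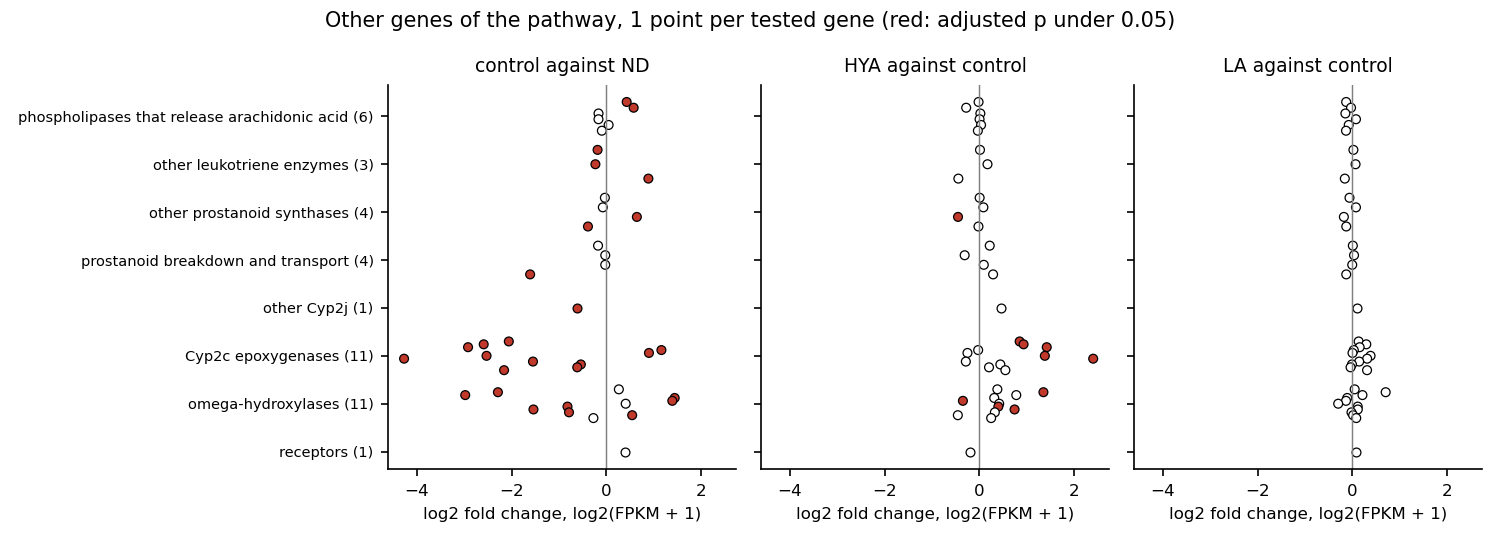
Log2 fold change on the log2(FPKM + 1) scale (x axis) of the 41 tested genes of the listed pathway groups (y axis, number of tested genes in parentheses) in 3 comparisons (panels), with 1 point per gene and red points where the adjusted p was under 0.05. Of the 11 Cyp2c genes, 9 lie to the left and 2 to the right of 0 in control against ND-fed mice, and none of the 41 genes is red in LA-treated against control mice.

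In whole liver, fewer cells of a type and less RNA per cell cannot be told apart, and markers of several cell types moved with the groups. For the 6 markers of recruited and lipid-associated macrophages, ND-fed mice had summed levels of 8.13 to 8.42 FPKM, control mice of 19.1 to 26.0 FPKM, HYA-treated mice of 10.6 to 14.1 FPKM and LA-treated mice of 18.7 to 23.3 FPKM. Most of this sum was Cd9, with a mean of 11.87 FPKM over the 12 mice. The other markers of the list had means of 0.336 (Ly6c2) to 1.23 FPKM (Gpnmb). The 3 of them that were tested (Gpnmb, Cd9 and Itgax) rose in control mice and fell in HYA-treated against control mice. Of all tested genes, 16.2% rose and 19.1% fell in control mice, and 1.57% rose and 1.23% fell in HYA-treated mice. Alox5ap, which leukocytes express, had its highest group mean in control mice. In LA-treated mice Alox5ap was 1.45 to 1.59 FPKM, which was not called against control mice (limma, adjusted p = 0.999). How Alox5ap relates to this marker sum was not tested. The 9 Kupffer cell and macrophage markers ranged from 204.4 to 316.1 FPKM in ND-fed and from 296.3 to 307.3 FPKM in control mice, with 3 higher and 2 lower, and from 215.0 to 300.4 FPKM in HYA-treated and from 292.9 to 308.9 FPKM in LA-treated mice, with none called against control mice.

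The 7 neutrophil markers had sums between 2.28 and 3.38 FPKM in ND-fed mice, between 4.42 and 8.78 FPKM in control mice, between 2.62 and 7.78 FPKM in HYA-treated mice and between 4.22 and 5.27 FPKM in LA-treated mice, with no call among the 2 tested on the authors' scale, and Ly6g and Mpo had means of 0.0119 and 0.0147 FPKM. With TPM 1 of the 2, Csf3r, rose in control against ND-fed mice (0.62, limma adjusted p = 0.0382), where 3792 of all 11083 genes rose. The 5 platelet markers, set beside Ptgs1 because platelets express it, were 1.25 to 1.47 FPKM in ND-fed and 2.44 to 3.80 FPKM in control mice, where Pf4 rose (1.14, adjusted p = 0.00503), and 1.84 to 3.65 FPKM in HYA-treated and 2.14 to 3.22 FPKM in LA-treated mice. Gp1bb was at 0 in every mouse. The 5 mast cell markers, set beside Ltc4s because mast cells express it, did not exceed 0.204 FPKM in any mouse, and Tpsb2 and Ms4a2 were at 0 throughout. The 6 lymphocyte markers ranged from 1.52 to 3.58 FPKM over all mice, and none was tested.

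For the 6 hepatocyte markers, ND-fed mice had summed levels of 41988 to 43566 FPKM and HYA-treated mice of 36081 to 38004 FPKM. LA-treated mice had 30497 to 31278 FPKM and control mice 27699 to 32078 FPKM. On the authors' scale, the only one on which these sums are given, the order of the group means was that of Ephx2 and Cyp2j5. Of the 6, Alb (-0.51), Ttr (-0.42), Cps1 (-1.46) and Cyp2e1 (-0.84) fell in control mice. Cyp2e1 rose in HYA-treated against control mice (0.79, adjusted p = 0.0452). With TPM these calls remained, but the falls were smaller, at -0.28, -0.19, -1.23 and -0.61, and the rise of Cyp2e1 was 0.66. The median of the 6 in control against ND-fed mice moved from -0.64 to -0.40. The shared order depended on the scaling. With TPM the log2 fold changes in HYA-treated against ND-fed mice were 0.07 for Ephx2 and 0.11 for Cyp2j5, neither called. HYA was thus above ND for both genes on that scale, whereas the median of the 6 hepatocyte markers was -0.13. The marker sums were not computed with TPM. Stellate and endothelial cell markers had 3 of 6 and 3 of 7 higher in control mice (5 and 6 with TPM) and none called in HYA-treated against control mice, and of the 2 tested cholangiocyte markers Epcam rose in control mice (0.81) and fell in HYA-treated mice (-0.84). Of all 11083 genes, 16.2% rose in control mice on the authors' scale. With TPM 3792 of them rose, and the median log2 fold change of all genes was 0.17. The part of these markers in the differences of the 10 genes was not tested.

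**Figure D4:**
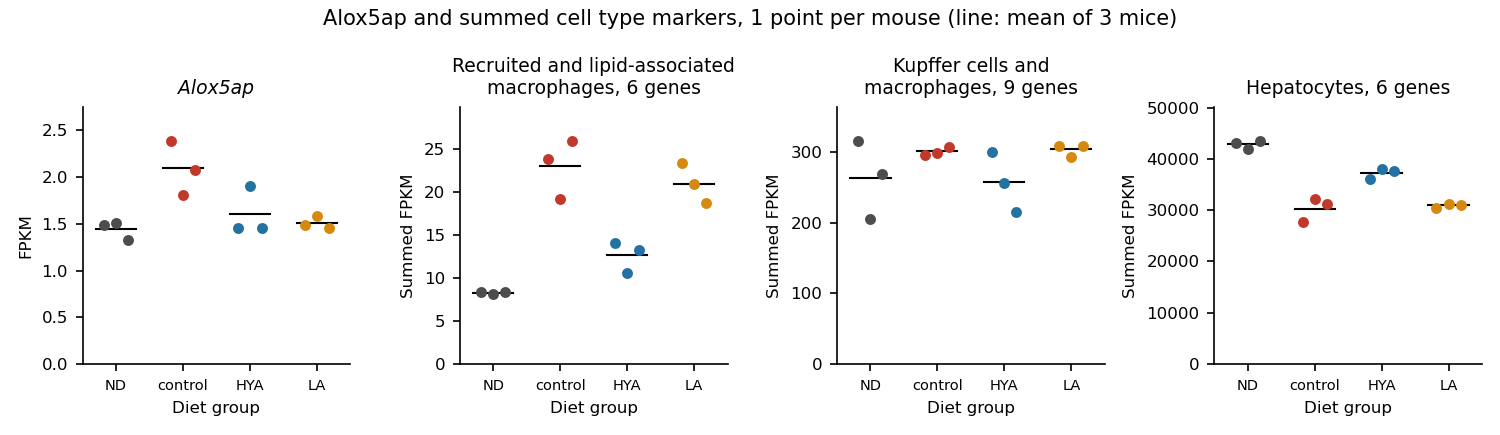
Level of Alox5ap in FPKM and summed FPKM of 3 marker lists (y axes, starting at 0) in the 4 diet groups (x axis), with 1 point per mouse and a line at the mean of 3 mice. In LA-treated mice Alox5ap lies at 1.45 to 1.59 FPKM, not called against control mice, and the recruited and lipid-associated macrophage markers lie at 18.7 to 23.3 FPKM. Cd9 has by far the highest mean of the genes in that sum. The hepatocyte markers lie at 27699 to 32078 FPKM in control mice, a range that holds the LA-treated mice (30497 to 31278 FPKM).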

How the data were processed

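Total RNA of liver was extracted with an RNeasy kit and sequenced as 150-base paired ends on the Illumina HiSeq platform. The authors deposited a single FPKM table with 1 column per mouse, and the submitters' processing notes name fastp, HISAT2 2.0.5, featureCounts 1.5.0-p3 and GRCm38. The study's methods give the unit as TPM, but the deposited columns summed to 342146 to 429286, which TPM cannot do. FPKM times gene length gave whole fragments for 99.98% of values above 0 (within 0.05 of a whole number), so fragments were recovered. Groups came from the sample labels, and no column was left out.

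Genes averaging 1 FPKM or more over the 12 mice were tested with limma 3.58.1 (R 4.3.3) on log2(FPKM + 1) in 1 fit of the 12 mice, with empirical Bayes trend, two-sided, and Benjamini-Hochberg adjustment over the 11083 genes of a comparison, called under 0.05. The code was tested on simulated data. P-values set the difference of 2 group means against the spread between mice within groups, estimated over the 4 groups and adjusted by empirical Bayes. Alternatives were a pseudocount of 0.1, no filter, median-ratio size factors, TPM, only the 2 groups compared, a replicate block, an added absolute log2 fold change above 1, voom on recovered fragments (14353 genes with a mean of at least 10 fragments), and leaving out each mouse.

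All 10 genes are named. Of the other pathway genes, at most the 20 called with the lowest p-value per comparison were to be named, and other called genes are marked where named. Alox15, Cmklr1, Ffar1, Ffar4, Ephx3 and Ephx4, which were not called, were named outside this rule. For likeness, the 3 genes with the highest Pearson r were taken. The members, lists and tests were chosen with earlier results of these data known. Annotation was GENCODE M21, whose coordinates were identical for 98.33% of 54409 shared identifiers and for all 10 genes. Promoter sequences were RefSeq entries for GRCm38.p6, found for 8 of the 10 genes, and motifs and alignments were computed with Python 3.11.15 and Biopython 1.88.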

Additional observations from a re-analysis of the deposited data

How the results depend on the processing

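Over the 6 tested genes, 5 comparisons and 20 alternatives, 563 differences stayed on their side of the threshold, 28 lost a call, 9 gained one and 0 reversed a called direction. In control against ND-fed mice, the 1 higher gene (Alox5ap) became 0 with voom on recovered fragments and with the added threshold of 1 on the log2 fold change, and the 2 lower genes (Ephx2 and Cyp2j5) became 0 with TPM and with that threshold and 1 when only the 2 groups were fitted. In HYA-treated against control mice, the 1 higher gene (Ephx2) became 0 with no filter, with TPM, with only the 2 groups and with the fold threshold. In HYA-treated against ND-fed mice, the 1 lower gene (Ephx1) became 0 with TPM and with the fold threshold. Leaving out 1 mouse at a time gave 0 to 1 higher and 1 to 3 lower genes in control against ND-fed mice, 0 to 2 higher in HYA-treated against control mice, 0 to 1 higher in HYA-treated against LA-treated mice and 0 to 2 lower in HYA-treated against ND-fed mice. The cause was not tested, except that the fold threshold exceeds each of the differences by construction.

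The replicate block raised the number of higher genes in HYA-treated against LA-treated mice from 0 to 1 (Ephx2, adjusted p = 0.0361), as did voom on recovered fragments, also 1, and it moved no other count. The labels do not say that a number joins mice, and deviations of same-numbered mice from their group means correlated at -0.396 to 0.294 over 18 pairs, with 3 over 0.1. With TPM the calls over all genes became 97 higher and 400 lower in HYA-treated against control mice (174 and 136 on the authors' scale), 31 and 134 in HYA-treated against LA-treated mice (26 and 28), and 1623 and 412 in HYA-treated against ND-fed mice (966 and 870), while the median log2 fold change of all genes in HYA-treated against control mice moved from 0.02 to -0.09. Depth limits Alox5 and Ptgs2, which averaged under 10 fragments and were tested only in the fit with no filter, where neither was called.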

Other observations

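The genes whose levels ran most like those of the members were taken by Pearson r of log2(FPKM + 1) over the 12 mice, which share their diet groups, so that r is a description that includes the differences between groups. Ephx2 ran most like Slco1a1, an organic anion transporter (r = 0.98), Slc10a1, the sodium-dependent bile acid transporter of hepatocytes (0.973), and Ahcy, the adenosylhomocysteinase (0.97). Cyp2j5 ran most like Bphl (0.962), Bco2, a carotenoid oxygenase (0.951), and Entpd8 (0.943). Ephx1 ran most like Tmem37 (0.926), Cyp2j6 like G6pc, the glucose-6-phosphatase of liver (0.91), Ptgs1 like Treml4 (0.881), and Alox5ap like Carnmt1 (0.855). With the group means subtracted, Ptgs1 ran most like H2-D1, a class I histocompatibility gene (0.971), and the leukocyte genes Arhgdib (0.96) and Sash3 (0.96), and Ephx2 most like Abcb10 (0.949).

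Between members, Cyp2j5 and Ephx2 had r = 0.859 over the 12 mice and 0.466 with the group means subtracted. Cyp2j5 and Cyp2j6 had 0.456 and 0.536, and Cyp2j6 and Ephx1 had 0.166 and -0.795. These values rest on 12 mice of 4 groups, and no test was made of them.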
